A study of Mus musculus with 21 samples.

Results

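The 38 genes described here encode the machinery by which the endoplasmic reticulum (ER) takes in, folds and checks newly made proteins, out of 35550 genes listed for the cell line. They were chosen by gene symbol and not by a rule on measured values, though with earlier results of these data known. By role they are 2 lectin chaperones, 4 disulfide isomerases, 4 cofactors of the ER lumen and 11 genes of ER-associated degradation (ERAD). The others are 5 sensors and effectors of ER stress, 5 genes of the translocon, 4 of the translocon-associated complex and 3 of signal peptidase. All 38 were listed at both times in the cell line, and 37 reached a mean of at least 1 TPM (a gene's share of all transcripts in a library, corrected for transcript length) at each time and were tested. The member left out, Derl3, was listed at 0 in all 14 cell line libraries.

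The 21 RNA-seq libraries came from RAW264.7, a macrophage-like mouse cell line, and from mouse liver, and the study's title asks about transglutaminase 2, vimentin and proteostasis in activated macrophages. At 24 h, wild-type (WT) RAW264.7 cells had received PBS, LPS at 1 µg/mL, or LPS at 1 µg/mL together with CTM at 0.5 mM, in 3 groups of 2 libraries. At 12 h, WT and Vim-KO RAW264.7 cells, the latter with the vimentin gene knocked out, had received PBS or LPS at 1 µg/mL, in 4 groups of 2 libraries. Liver came from C57BL/6J mice in 7 groups of 1 library. WT mice were injected into the peritoneum with PBS, with LPS at 30 mg/kg, or with LPS at 30 mg/kg plus CTM at 100 mg/kg, and TG2-KO mice with PBS or with LPS at 30 mg/kg. A further pair of WT livers, with and without liver macrophage depletion, had received LPS at a dose that the labels do not give. LPS, lipopolysaccharide, is a bacterial cell wall product that macrophages sense through TLR4, and CTM is written as in the labels. The labels do not say whether the Vim-KO line is 1 clone, how old the mice were, how TG2 was deleted, or whether replicate libraries were made from separate cultures. The p-values therefore reflect only the variation among these libraries, and that may be technical.

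Vim stood at 17.0 to 33.0 TPM in the Vim-KO libraries and at 1375 to 1930.1 TPM in the WT libraries of the same experiment. Tgm2, which encodes transglutaminase 2, stood at 0.74 and 15.53 TPM in the TG2-KO livers and at 35.7 to 429 TPM in the WT livers. All 8 macrophage markers checked were above 0 in every cell line library, and the 8 hepatocyte markers summed to at most 0.66 TPM there. A list of 7 neutrophil markers reached 896 and 912 TPM in the WT LPS libraries at 12 h, nearly all of it S100a8, against 5.05 to 14.7 TPM in the other 12 h libraries. Of those markers, Ly6g and Retnlg were listed at 0 in every 12 h library. The part of these differences in the results below was not tested. Read depth is unknown, since TPM hold no counts, and in RNA from bulk liver fewer cells of a type and less RNA per cell cannot be told apart.

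Proteins bound for secretion or for membranes enter the ER through the Sec61 translocon, lose their signal peptide to signal peptidase, and fold with the help of chaperones and disulfide isomerases. Chains that fail to fold are moved back to the cytosol and degraded, which is ERAD. When unfolded proteins accumulate, the sensors ATF6, IRE1 (gene Ern1) and PERK (gene Eif2ak3) start the unfolded protein response, which raises transcription of many of these genes, and activated macrophages draw on this system while secreting cytokines.

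The best known DNA element of that response, the ER stress element (CCAAT, then 9 bases, then CCACG, on either strand), was searched in RefSeq promoters of GRCm38.p6 from 250 bases before to 50 after each start. Of the 38 genes, 31 had a promoter there, and 6 of the 31 (19.4%) held the element, beside 0.137% of all 27025 genes with a promoter. The related element ATTGG, 1 base, CCACG was found in Herpud1 alone (3.23% of the 31), beside 0.0444% of these genes. The core TGACGTGG or TGACGTGA was found in Vcp alone (3.23% of the 31), beside 1.22% of these genes. Each of these 8 promoters held 1 match, so no matches overlapped. A match describes letters and is not a measured binding site. The windows around the first 7 matches are shown because they set these members apart by sequence. The element is in capitals, on the strand of the gene, with up to 21 bases on each side.
Calr: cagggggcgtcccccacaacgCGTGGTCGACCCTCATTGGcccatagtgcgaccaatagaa
Canx: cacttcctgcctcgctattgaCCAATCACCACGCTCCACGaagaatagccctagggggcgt
Pdia6: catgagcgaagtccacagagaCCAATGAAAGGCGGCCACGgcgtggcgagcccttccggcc
Creld2: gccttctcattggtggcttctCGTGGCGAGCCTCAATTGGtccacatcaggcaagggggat
Syvn1: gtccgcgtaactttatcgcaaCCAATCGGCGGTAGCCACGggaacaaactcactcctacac
Derl3: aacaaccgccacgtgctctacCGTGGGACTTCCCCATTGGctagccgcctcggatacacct
Herpud1: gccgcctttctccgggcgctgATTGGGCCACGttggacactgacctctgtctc

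On GRCm38.p6 these windows lie at chr8:84847054-84847114 (Calr, minus strand), chr11:50325779-50325839 (Canx, minus strand), chr12:17266470-17266530 (Pdia6, plus strand) and chr15:88819499-88819559 (Creld2, plus strand). Those of Syvn1, Derl3 and Herpud1 lie on the plus strand at chr19:6046511-6046571, chr10:75893221-75893281 and chr8:94386356-94386408. All are upstream of the annotated start, with the element beginning between 44 bases (Syvn1) and 162 bases (Calr) before it. In Canx, Pdia6 and Syvn1 the element reads forward in the direction of the gene, and in Calr, Creld2 and Derl3 it reads in reverse.

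After 24 h of LPS, the luminal cofactors and several other folding genes were lower in WT cells and a few stress effectors were much higher. Of the 37 members tested, 21 fell and 5 rose (limma, adjusted p over all genes), beside 45.1% of all 11030 genes tested that fell and 20.9% that rose. The members' median change of -0.25 on the log2 scale lay close to the median over all genes, -0.23. TPM are shares, so a second scaling, by the median of ratios between libraries, was also run. It brought the median of all genes to about 0, and then 13 members fell and 14 rose, beside 31.0% and 31.3% of all genes. These scaled counts are near the shares over all genes and are no result about the members as a list. The 13 that fell on both scales were Calr, Pdia3, Pdia6, Manf, Creld2, Sdf2l1, Hyou1, Syvn1, Vcp, Xbp1, Eif2ak3, Spcs2 and Spcs3, and the 5 that rose on both were Herpud1, Derl1, Edem1, Ern1 and Ppp1r15a. As listed, the number that rose was 2 without PBS library 1, 2 without PBS library 2, 3 without LPS library B and 2 without the trend option of limma.

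**Figure D1:**
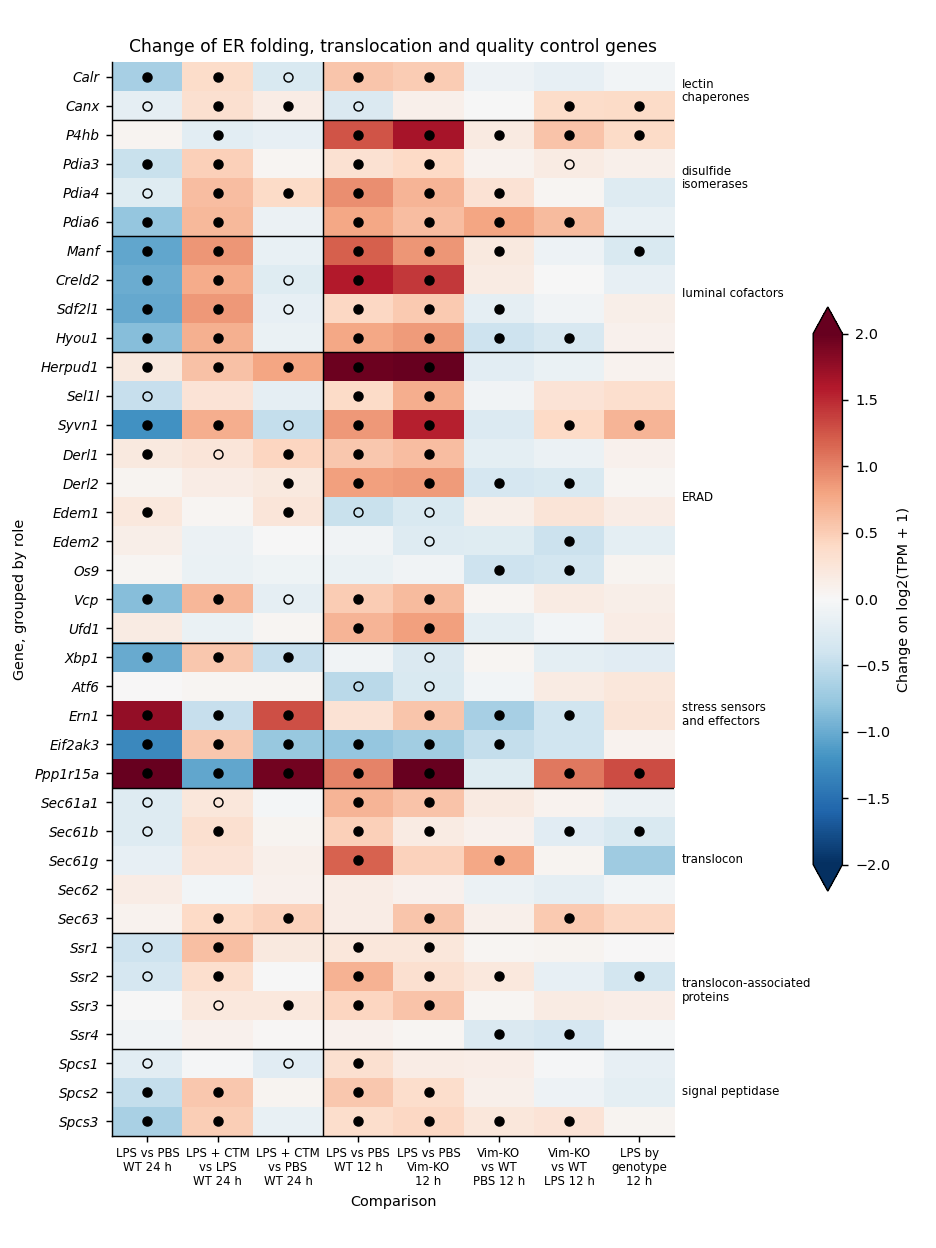
Change of the 37 tested members (rows, grouped by role) in each of 8 cell line comparisons (columns), on log2(TPM + 1), with red higher, blue lower and colours ending at ±2. A dot marks an adjusted p under 0.05 in limma, filled where the same call held after median-of-ratios scaling. The 24 h LPS column is mostly blue for luminal genes. Of all 37 members 21 fell there as listed and 13 after scaling. Both 12 h LPS columns are mostly red (26 members rose in each).

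The cofactors of the ER lumen all fell, 4 of 4, with a median change of -1.01. Manf, an ER-resident partner of the chaperone BiP that can be secreted, stood at 639.7 and 625 TPM in PBS libraries, 333 and 284 in LPS libraries and 539.9 and 599 in LPS plus CTM libraries. Creld2, a calcium-binding ER protein, stood at 169 and 161 TPM in PBS libraries, 81.2 and 83.9 in LPS libraries and 137 and 141 in LPS plus CTM libraries. In both genes LPS was lowest, CTM lay between LPS and PBS, and no groups overlapped. Sdf2l1, a partner of ER DNAJ co-chaperones, stood at 336 and 331 TPM in PBS libraries, 169 and 158 in LPS libraries and 291 and 305 in LPS plus CTM libraries. Hyou1, the nucleotide exchange factor of BiP, stood at 221 and 211 TPM in PBS libraries, 125 and 114 in LPS libraries and 189 and 204 in LPS plus CTM libraries. The same order held in both, again without overlap. On the log2 scale the LPS changes were -1.04 ± 0.08 for Manf, -0.99 ± 0.06 for Creld2, -1.02 ± 0.06 for Sdf2l1 and -0.85 ± 0.07 for Hyou1 (± SE, 2 libraries per group), with adjusted p from 6.34e-06 to 4.15e-05.

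Both lectin chaperones, which hold glycoproteins while they fold, fell, and so did 3 of 4 disulfide isomerases. Calr (calreticulin) stood at 1394 and 1330.3 TPM in PBS libraries, 899.9 and 819 in LPS libraries and 1070.4 and 1139 in LPS plus CTM libraries. Pdia6, a disulfide isomerase, stood at 513 and 487 TPM in PBS libraries, 303 and 282 in LPS libraries and 445 and 473 in LPS plus CTM libraries. Both were lowest with LPS and did not overlap between groups. The LPS changes were -0.67 ± 0.06 for Calr (adjusted p = 6.20e-05) and -0.77 ± 0.06 for Pdia6 (adjusted p = 2.92e-05). Pdia3, which works with calreticulin and calnexin, changed by -0.44 ± 0.06 (adjusted p = 0.000663). The smaller changes of Canx (calnexin, -0.18) and Pdia4 (-0.25) were called as listed but not after scaling. P4hb, the classical protein disulfide isomerase, changed by 0.05 (adjusted p = 0.479), with its LPS libraries at 1187 and 1117 TPM on either side of a PBS library at 1167 TPM. After scaling P4hb was called higher, with a change of 0.30 (adjusted p = 0.00505).

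Of the 10 ERAD genes tested 3 were higher, 3 lower and 4 not past the threshold. After scaling 7 were higher (Herpud1, Derl1, Derl2, Edem1, Edem2, Os9 and Ufd1) and 2 lower (Syvn1 and Vcp). Syvn1, the ubiquitin ligase HRD1 at the centre of ERAD, stood at 44.2 and 44.6 TPM in PBS libraries, 22.2 and 15.7 in LPS libraries and 30.3 and 32.8 in LPS plus CTM libraries. Vcp, the ATPase p97 that extracts substrates from the membrane, stood at 316 and 292 TPM in PBS libraries, 174 and 162 in LPS libraries and 261 and 272 in LPS plus CTM libraries. Their LPS libraries were the lowest, with changes of -1.21 ± 0.15 (Syvn1, adjusted p = 0.000323) and -0.85 ± 0.06 (Vcp, adjusted p = 2.78e-05). Herpud1, a membrane scaffold of the HRD1 complex, rose by 0.20 ± 0.07 (adjusted p = 0.0415), and Derl1 and Edem1 rose by 0.20 ± 0.06 each (adjusted p = 0.0288 and 0.0233). Sel1l, the partner of HRD1, changed by -0.47 ± 0.12 (adjusted p = 0.0098), a call not kept after scaling.

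The stress sensors and effectors held both the highest and the lowest change of all members. Ppp1r15a, which encodes the phosphatase subunit GADD34 that reverses the translational block imposed by PERK, stood at 13.0 and 13.9 TPM in PBS libraries, 102 and 122 in LPS libraries and 58.5 and 49.7 in LPS plus CTM libraries. Ern1, which encodes the sensor IRE1, stood at 9.28 and 8.42 TPM in PBS libraries, 34.7 and 29.97 in LPS libraries and 24.2 and 22.0 in LPS plus CTM libraries. These genes were highest with LPS, and their CTM libraries lay between LPS and PBS. Their changes with LPS were 2.96 ± 0.12 (Ppp1r15a, adjusted p = 1.54e-06) and 1.76 ± 0.11 (Ern1, adjusted p = 1.42e-05). Eif2ak3, which encodes PERK, stood at 10.9 and 12.4 TPM in PBS libraries, 4.42 and 3.89 in LPS libraries and 6.87 and 6.14 in LPS plus CTM libraries. Xbp1, the transcription factor whose mRNA IRE1 splices, stood at 191 and 199 TPM in PBS libraries, 99.3 and 93.5 in LPS libraries and 141 in both LPS plus CTM libraries. Both fell, with changes of -1.30 ± 0.14 (Eif2ak3, adjusted p = 0.000168) and -1.01 ± 0.06 (Xbp1, adjusted p = 8.07e-06), and TPM per gene do not separate spliced from unspliced Xbp1. Atf6, the third sensor, stood at 35.2 and 36.1 TPM in PBS libraries, 38.1 and 34.0 in LPS libraries and 37.6 and 36.2 in LPS plus CTM libraries, with its groups overlapping and a change of 0.01 (adjusted p = 0.904). After scaling Atf6 was called higher, with a change of 0.26 (adjusted p = 0.0191).

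**Figure D2:**
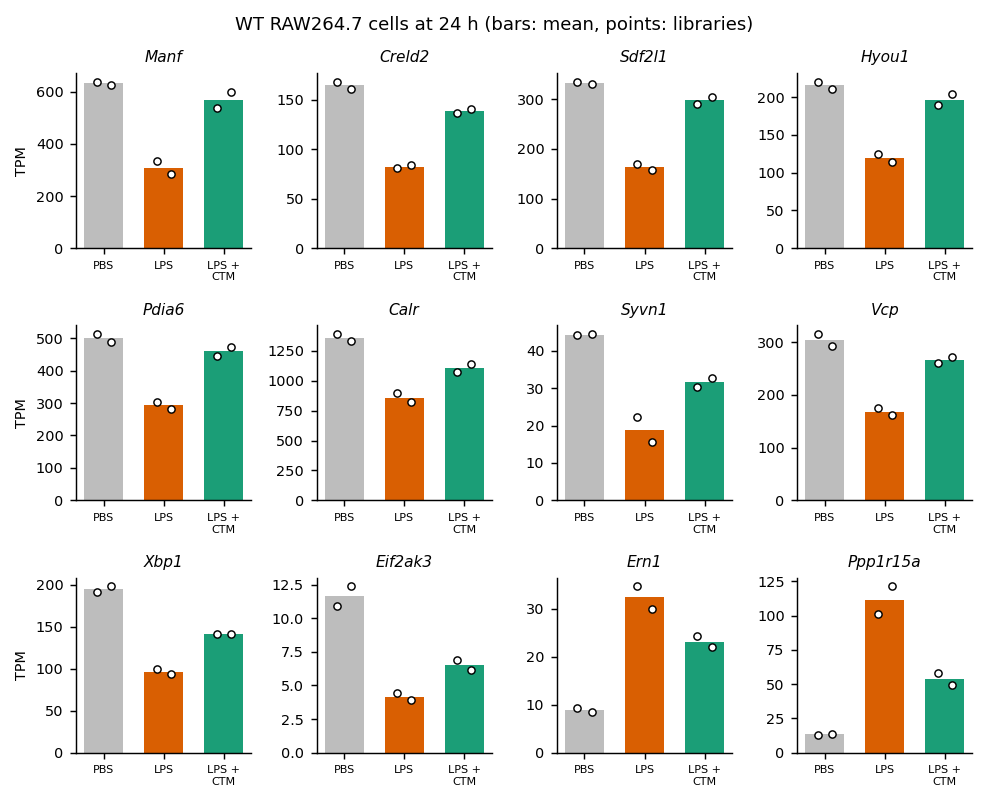
TPM of 12 members in WT RAW264.7 cells at 24 h, with 1 point per library and bars at the mean of the 2 libraries of each group (PBS, LPS, LPS plus CTM). In 10 genes the LPS libraries are the lowest and in Ern1 and Ppp1r15a the highest, and the LPS plus CTM libraries lie between the LPS and PBS libraries in all 12.

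Among the genes of entry into the ER, 2 of 5 translocon genes and 2 of 4 translocon-associated genes fell, and after scaling none of these 4 was called, while Sec62 (0.39, adjusted p = 0.00254), Sec63 (0.32, adjusted p = 0.00459) and Ssr3 (0.25, adjusted p = 0.00679) were called higher. All 3 signal peptidase subunits fell, with a median change of -0.47, and Spcs2 (-0.47 ± 0.07, adjusted p = 0.000908) and Spcs3 (-0.65 ± 0.06, adjusted p = 6.38e-05) also did so after scaling. Summed over its members, each role but the stress set stood lower with LPS than with PBS. The luminal cofactors went from 1346 ± 26 to 674 ± 49 TPM and the translocon from 526 ± 12 to 461 ± 2.8 TPM (mean ± SD, n = 2). The sums are of TPM as listed, where the median change over all genes was -0.23, and they were not scaled.

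Among 67 other genes of the same pathways, 28 fell and 16 rose with LPS at 24 h, beside 45.1% and 20.9% of all genes tested. These counts are near the shares over all genes and are no result about the 67 as a list. Of the 20 folding genes among them 11 fell and 3 rose, and of the 11 genes of signalling in the unfolded protein response 4 fell and 7 rose. The difference between these lists was not tested. Atf3, a stress-induced transcription factor, rose by 5.35 ± 0.19 and Ddit3, which encodes the PERK-branch factor CHOP, rose by 3.32 ± 0.08. Trib3 (3.77 ± 0.27) and Chac1 (3.16 ± 0.16), both targets of the PERK branch, rose as well. The chaperone BiP, encoded by Hspa5 and given here outside the naming rule for its central place, fell by 0.90 ± 0.05 (adjusted p = 5.44e-06).

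With CTM added to LPS for 24 h, most of the luminal folding genes stood above their level with LPS alone. Of the 37 members 23 rose and 3 fell, beside 16.1% and 9.45% of all genes tested, and the members' median change was 0.32 against 0.07 over all genes. After scaling 20 rose and 4 fell, beside 11.5% and 14.1% of all genes. Fewer members were called whichever library of these groups was left out, with a members' median change of 0.29 to 0.40 in those fits. Each such fit holds fewer samples, and the cause was not tested. The same LPS libraries serve this comparison and the one above, so the calls of the comparisons are not independent.

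The luminal cofactors rose in 4 of 4, by a median of 0.80. Relative to LPS alone Manf changed by 0.88 ± 0.08 (adjusted p = 0.000822), Sdf2l1 by 0.86 ± 0.06 (adjusted p = 0.000344), Creld2 by 0.74 ± 0.06 (adjusted p = 0.000487) and Hyou1 by 0.71 ± 0.07 (adjusted p = 0.000892). Both lectin chaperones rose, as did 3 of 4 disulfide isomerases, among them Pdia6 (0.65 ± 0.06) and Pdia4 (0.62 ± 0.06). P4hb fell, with a change of -0.21 ± 0.06 (adjusted p = 0.0368), from 1187 and 1117 TPM in LPS libraries to 969 and 1019 TPM in LPS plus CTM libraries. Among 10 ERAD genes Herpud1, Syvn1, Derl1 and Vcp rose and 6 did not pass. Herpud1 stood at 67.5 and 64.3 TPM in PBS libraries, 79.9 and 72.1 in LPS libraries and 113 and 117 in LPS plus CTM libraries, and so was highest in the LPS plus CTM libraries.

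Among the stress genes 2 fell and 2 rose. Ppp1r15a fell by 1.03 ± 0.12 (adjusted p = 0.00159) and Ern1 fell by 0.47 ± 0.11 (adjusted p = 0.0239). Xbp1 rose by 0.55 ± 0.06 (adjusted p = 0.00123) and Eif2ak3 by 0.54 ± 0.14 (adjusted p = 0.0297). Atf6 changed by 0.03 (adjusted p = 0.803). In the translocon 3 of 5 rose, in the translocon-associated complex 3 of 4, and in signal peptidase 2 of 3, with Ssr1 (0.61 ± 0.09) and Spcs2 (0.53 ± 0.07) the furthest. Of the 67 other pathway genes 23 rose and 5 fell, beside 16.1% and 9.45% of all genes. Among them 11 of 20 folding genes and 10 of 20 genes of translocation and glycosylation were higher. Fkbp11, an ER prolyl isomerase, rose by 1.27 ± 0.11 and Dnajc3, a luminal co-chaperone, by 0.82 ± 0.08, while Atf3 fell by 1.58 ± 0.19 and Bbc3, a pro-apoptotic gene, fell by 0.84 ± 0.08.

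Set against PBS, the LPS plus CTM cells had 10 members higher and 8 lower, beside 17.4% and 35.5% of all genes, with a median of 0.02 against -0.16 over all genes. After scaling 17 were higher and 2 lower, beside 25.5% and 23.4%. These counts fell to 11 in all without either PBS library, to 10 without CTM library A and to 12 without CTM library B. Ppp1r15a (1.93 ± 0.12), Ern1 (1.29 ± 0.11) and Herpud1 (0.80 ± 0.07) were still above PBS, and Eif2ak3 (-0.75 ± 0.14) and Xbp1 (-0.47 ± 0.06) still below it. Manf (-0.15 ± 0.08, adjusted p = 0.159), Hyou1 (-0.13 ± 0.07, adjusted p = 0.139) and Pdia6 (-0.12 ± 0.06, adjusted p = 0.108) were not called. Calr (-0.30 ± 0.06, adjusted p = 0.00447), Creld2 (-0.24 ± 0.06, adjusted p = 0.0103) and Sdf2l1 (-0.16 ± 0.06, adjusted p = 0.0440) were called lower than with PBS, but not after scaling. Pdia4 was above PBS on both scales, by 0.38 ± 0.06 (adjusted p = 0.00170). This comparison shares its PBS libraries with the first and its CTM libraries with the second.

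After 12 h of LPS the folding genes stood higher in WT cells. Of the 37 members 26 rose and 4 fell, beside 17.8% and 53.1% of all 11115 genes tested, and the members' median change was 0.47 against -0.35 over all genes. After scaling 33 rose and 1, Eif2ak3, fell, beside 32.7% and 32.3% of all genes, with a members' median of 0.85. All 4 disulfide isomerases, all 4 luminal cofactors and all 3 signal peptidase subunits rose, with 7 of 10 ERAD genes. In Vim-KO cells 26 rose and 5 fell, beside 20.5% and 45.8% of all genes, with a median of 0.53 against -0.23. After scaling 32 rose and 1 fell there, beside 32.3% and 31.9%. The genotypes, which share no library, had 24 of their risen members in common, of 26 in each. The like overlap over all genes was not counted, so this is a description and no result about the members as a list.

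Creld2 stood at 93.5 and 99.4 TPM (PBS) and 292 TPM in each library (LPS) in WT cells, and at 106 and 111 TPM (PBS) and 283 and 301 TPM (LPS) in Vim-KO cells. Manf stood at 366 and 369.8 TPM (PBS) and 841 and 844 TPM (LPS) in WT cells, and at 415 and 428 TPM (PBS) and 780.2 and 784 TPM (LPS) in Vim-KO cells. LPS separated the groups without overlap in both genotypes. The LPS changes were 1.59 ± 0.06 (WT, adjusted p = 2.90e-07) and 1.42 ± 0.06 (Vim-KO, adjusted p = 5.13e-07) for Creld2, and 1.19 ± 0.05 and 0.89 ± 0.05 for Manf. Hyou1 stood at 226 and 220.2 TPM (PBS) and 362 and 401 TPM (LPS) in WT cells, and at 166 and 169 TPM (PBS) and 335 and 275 TPM (LPS) in Vim-KO cells. It rose in each, by 0.77 ± 0.10 and 0.85 ± 0.10. Sdf2l1 rose by 0.41 ± 0.05 and 0.53 ± 0.05.

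P4hb stood at 494 and 512 TPM (PBS) and 1170.0 and 1249 TPM (LPS) in WT cells, and at 559.6 and 579 TPM (PBS) and 1815 and 1763 TPM (LPS) in Vim-KO cells. Its libraries formed 4 levels without overlap, lowest in WT with PBS and highest in Vim-KO with LPS. The LPS changes were 1.26 ± 0.06 (WT, adjusted p = 7.22e-07) and 1.65 ± 0.06 (Vim-KO, adjusted p = 1.88e-07). Pdia4 rose by 0.92 ± 0.06 and 0.67 ± 0.06, and Pdia6 by 0.77 ± 0.06 and 0.61 ± 0.06. Calr rose by 0.55 ± 0.06 and 0.50 ± 0.06. Canx, the other lectin chaperone, stood at 517 and 496 TPM (PBS) and 404 and 427 TPM (LPS) in WT cells, and at 498 and 504 TPM (PBS) and 559 and 518 TPM (LPS) in Vim-KO cells. It was lowest in the WT LPS libraries, with -0.29 ± 0.06 (adjusted p = 0.0035, not called after scaling) in WT and 0.10 ± 0.06 (adjusted p = 0.171) in Vim-KO cells. Canx was called higher in Vim-KO cells after scaling, with a change of 0.36 (adjusted p = 0.000551).

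Herpud1 held the highest change of all members in WT cells. It stood at 30.2 and 28.4 TPM (PBS) and 113 and 121 TPM (LPS) in WT cells, and at 25.2 and 24.97 TPM (PBS) and 117 and 96.8 TPM (LPS) in Vim-KO cells, with changes of 1.97 ± 0.10 (adjusted p = 9.54e-07) and 2.04 ± 0.10 (adjusted p = 7.89e-07). Syvn1 stood at 26.5 and 27.4 TPM (PBS) and 47.7 and 52.5 TPM (LPS) in WT cells, and at 21.1 and 23.1 TPM (PBS) and 72.0 and 61.6 TPM (LPS) in Vim-KO cells. Its Vim-KO LPS libraries were above all others, and the changes were 0.87 ± 0.10 (WT, adjusted p = 9.36e-05) and 1.55 ± 0.10 (Vim-KO, adjusted p = 3.77e-06). Derl2, a derlin of the membrane channel, rose by 0.82 ± 0.08 and 0.85 ± 0.08, and Ufd1, a cofactor of p97, by 0.68 ± 0.07 and 0.82 ± 0.07. Edem1, a mannosidase-like protein that marks misfolded glycoproteins, fell, with changes of -0.45 ± 0.09 and -0.30 ± 0.09, calls not kept after scaling in either genotype. Edem2 and Os9 were not past the threshold in WT cells as listed, and were called higher there after scaling.

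Among the sensors Eif2ak3 fell in both genotypes on both scales. It stood at 12.7 and 12.2 TPM (PBS) and 5.71 and 8.25 TPM (LPS) in WT cells, and at 8.60 and 8.83 TPM (PBS) and 5.24 and 4.76 TPM (LPS) in Vim-KO cells, with changes of -0.77 ± 0.15 (adjusted p = 0.00224) and -0.70 ± 0.15 (adjusted p = 0.0042). Atf6 stood at 49.4 and 48.8 TPM (PBS) and 32.0 and 35.3 TPM (LPS) in WT cells, and at 47.0 and 47.4 TPM (PBS) and 41.0 and 35.2 TPM (LPS) in Vim-KO cells. It was lower with LPS in both, with changes of -0.53 ± 0.09 and -0.30 ± 0.09 (adjusted p = 0.000879 and 0.0159), though neither call held after scaling. Xbp1 stood at 143 and 140.4 TPM (PBS) and 134 and 136 TPM (LPS) in WT cells, and at 144 and 146 TPM (PBS) and 128 and 108 TPM (LPS) in Vim-KO cells. Its change of -0.07 ± 0.08 in WT cells (adjusted p = 0.449) became 0.30 after scaling (adjusted p = 0.00594), so its direction there depends on the scale. In Vim-KO cells Xbp1 changed by -0.30 ± 0.08 (adjusted p = 0.0123), a call not kept after scaling. Ern1 stood at 9.56 and 8.70 TPM (PBS) and 11.2 and 11.6 TPM (LPS) in WT cells, and at 4.98 and 5.85 TPM (PBS) and 9.13 and 7.74 TPM (LPS) in Vim-KO cells. Ern1 rose in Vim-KO cells by 0.56 ± 0.12 (adjusted p = 0.00412), and its change in WT cells was 0.29 ± 0.12 (adjusted p = 0.0598). It was called higher in WT cells after scaling, with a change of 0.63 (adjusted p = 0.00168).

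Ppp1r15a, the member with the largest difference in LPS response between the genotypes, is given by library. It stood at 12.0 and 10.1 TPM (PBS) and 22.3 and 23.7 TPM (LPS) in WT cells, and at 8.43 and 9.92 TPM (PBS) and 50.1 and 47.9 TPM (LPS) in Vim-KO cells. The Vim-KO LPS libraries held more than any other 12 h library, while the Vim-KO PBS libraries held the least. LPS raised it by 1.00 ± 0.11 in WT cells (adjusted p = 9.48e-05) and by 2.30 ± 0.11 in Vim-KO cells (adjusted p = 9.79e-07).

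**Figure D3:**
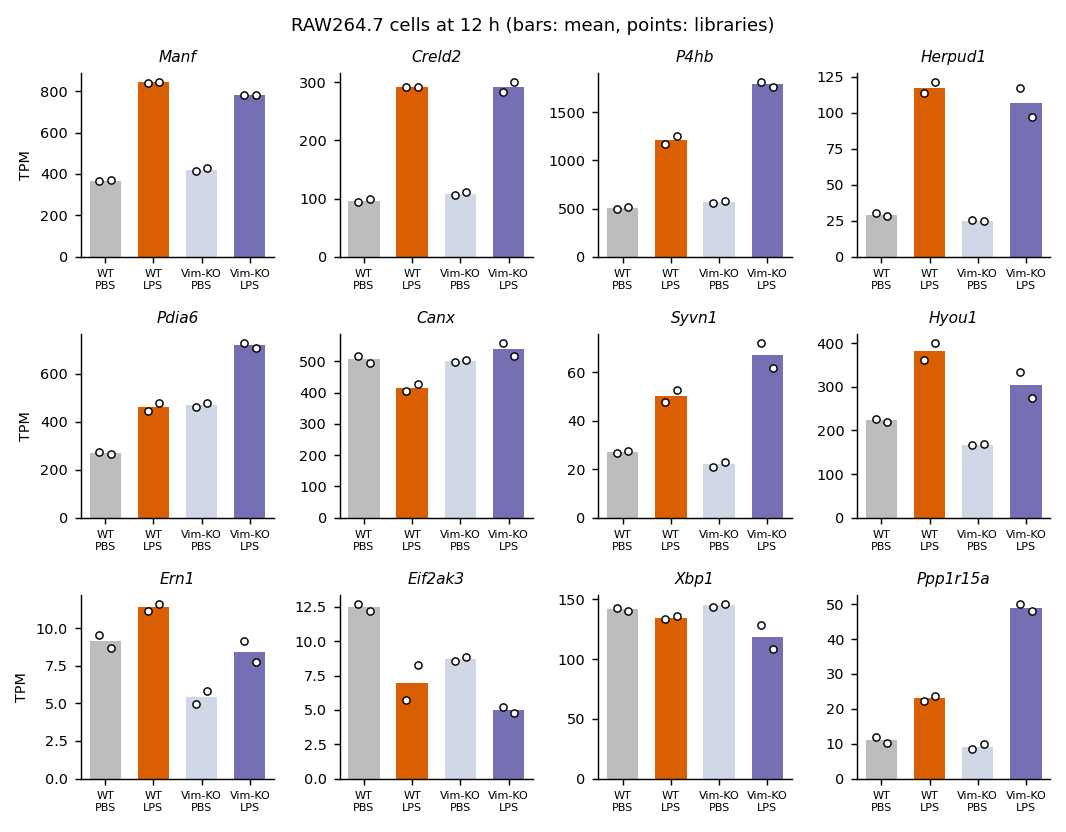
TPM of 12 members in WT and Vim-KO RAW264.7 cells at 12 h, with 1 point per library and bars at the mean of the 2 libraries of each group. Ppp1r15a, P4hb and Syvn1 are highest in Vim-KO cells with LPS, Canx is lowest in WT cells with LPS, and Creld2 and Herpud1 reach like levels in both genotypes.

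At the entry of the ER, 3 of 5 translocon genes, 3 of 4 translocon-associated genes and all 3 signal peptidase subunits rose in WT cells. The channel subunits Sec61a1 (0.67 ± 0.10) and Sec61b (0.47 ± 0.06) rose. Sec61g stood at 11.3 and 7.33 TPM (PBS) and 25.9 and 18.6 TPM (LPS) in WT cells, and at 14.1 and 18.7 TPM (PBS) and 24.1 and 21.6 TPM (LPS) in Vim-KO cells. Its replicates lay far apart, with 1.18 ± 0.23 in WT cells (adjusted p = 0.00188) and 0.47 ± 0.23 in Vim-KO cells (adjusted p = 0.102). Sec62, a partner of the channel for entry after translation, passed the threshold in none of the 8 cell line comparisons as listed. Summed over its members, each role but the stress set stood higher with LPS than with PBS in both genotypes at 12 h. The luminal cofactors went from 882 ± 0.16 to 1775 ± 34 TPM in WT and from 868 ± 14 to 1626 ± 34 TPM in Vim-KO cells (mean ± SD, n = 2).

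**Figure D4:**
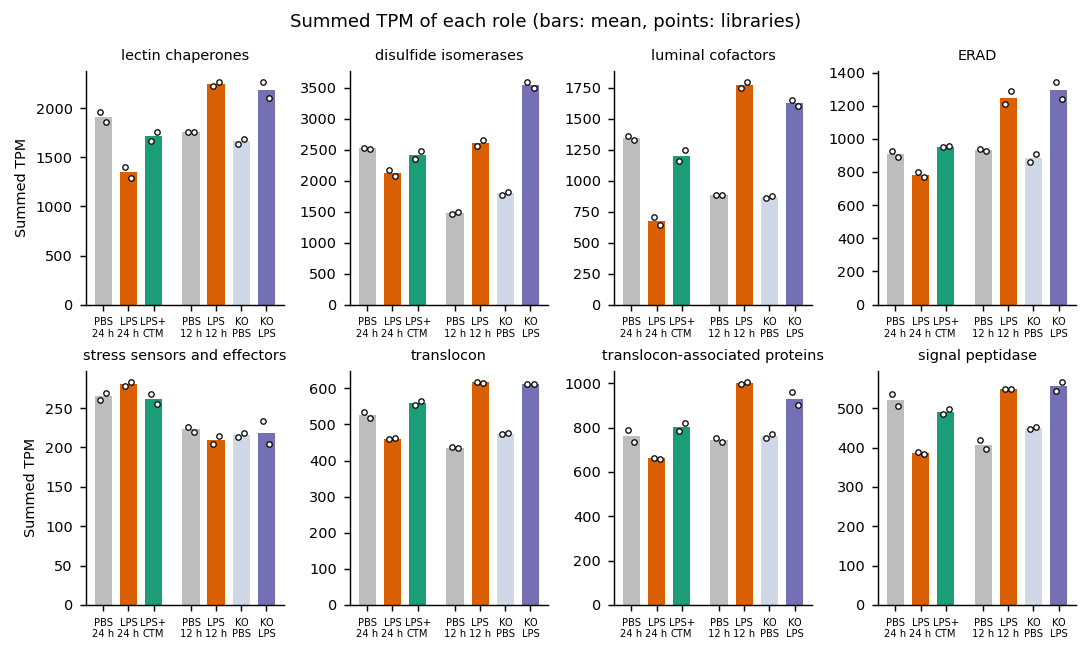
TPM summed over the members of each of 8 roles, with 1 point per library and bars at the mean of 2 libraries, for the 24 h groups (PBS, LPS, LPS plus CTM) and, after the gap, the 12 h groups (WT with PBS and LPS, then Vim-KO with PBS and LPS). In 7 roles, all but the stress sensors and effectors, LPS stands below PBS at 24 h and above PBS at 12 h in both genotypes. The sums are of TPM as listed and were not scaled. After scaling, the 24 h LPS calls were 7 higher and 2 lower in ERAD and 2 higher and 0 lower in the translocon.

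Of the 67 other pathway genes 66 were tested at 12 h. In WT cells 33 rose and 14 fell with LPS, beside 17.8% and 53.1% of all genes. In Vim-KO cells 30 rose and 13 fell, beside 20.5% and 45.8%. Hspa5 (BiP) rose by 1.29 ± 0.07 in WT and 1.16 ± 0.07 in Vim-KO cells. Trib3 rose by 3.17 ± 0.17 and 2.89 ± 0.17, and Ddit3 by 2.11 ± 0.12 and 1.75 ± 0.12. Erp29, a luminal protein related to the disulfide isomerases, fell, with changes of -1.78 ± 0.06 and -1.57 ± 0.06.

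The 12 h and 24 h LPS changes went in opposite directions for many members. Of the 21 that fell at 24 h, 18 rose at 12 h in WT cells, 85.7% of the 21 and 69.2% of the 26 that rose at 12 h. After scaling 12 of the 13 that fell at 24 h rose at 12 h, 92.3% of the 13 and 36.4% of the 33. Of all 37 members 26 rose at 12 h as listed and 33 after scaling, so the scaled share of 92.3% is little above that of all members. Herpud1, Derl1 and Ppp1r15a rose at both times, Canx and Eif2ak3 fell at both, and Edem1 fell at 12 h and rose at 24 h. In all 19 of 37 members (51.4%) were called in opposite directions, 3 rose at both times and 2 fell at both, beside 6.98%, 10.5% and 34.1% of the 10797 genes tested at both times. After scaling 12 (32.4%) were called in opposite directions, 12 rose at both times and 1, Eif2ak3, fell at both, beside 6.97%, 19.5% and 18.4% of all genes. The 12 that then rose at both were P4hb, Herpud1, Derl1, Derl2, Edem2, Os9, Ufd1, Ern1, Ppp1r15a, Sec62, Sec63 and Ssr3. Levels with PBS differed too, with Manf at 366 and 369.8 TPM in the 12 h experiment and 639.7 and 625 TPM in the 24 h one. The times come from separate experiments with RNA extracted on different dates, so time and experiment cannot be told apart, and the difference between them was not tested.

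Members with the ER stress element in the printed windows are given here by their changes, as a description with no test. The calls are those as listed. At 24 h LPS all 5 that could be tested fell (median -0.77), against 11 of 25 with a promoter but without this element (median -0.07). Over all genes tested 45.1% fell. Canx, 1 of the 5, was not called there after scaling (0.07, adjusted p = 0.236, limma). The 25 include Herpud1 and Vcp, which hold the other motifs. Atf6, Derl1, Hyou1, Manf, Sec61a1, Spcs3 and Ssr2 had no promoter there and are in neither set. With CTM against LPS all 5 rose (median 0.65), against 12 of 25 (median 0.27), beside 16.1% of all genes. At 12 h in WT cells 4 rose and Canx fell (median 0.77), against 16 risen of 25 (median 0.38), beside 17.8% risen of all genes. In Vim-KO cells 4 of the 5 rose (median 0.61), against 16 of 25 (median 0.47), beside 20.5% of all genes. Derl3, whose promoter holds the element, was listed at 0 throughout.

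Vim-KO and WT cells with PBS differed in 14 members, 7 higher and 7 lower in Vim-KO cells, beside 17.7% and 25.4% of all genes, and the members' median was 0.03. The count was 6 to 8 when any of the 4 PBS libraries was left out. With LPS 8 were higher and 7 lower in Vim-KO cells, beside 24.1% and 20.6% of all genes, with a median of -0.03. After scaling 7 were higher and 14 lower, beside 20.5% and 25.5%. As listed, the counts are near the shares over all genes in both states and are no result about the members as a list. The split with LPS depends on the scaling.

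Some members differed between the genotypes in both states, which share no library. Pdia6 stood at 273 and 267 TPM in WT and 461 and 476 TPM in Vim-KO cells with PBS, and at 445 and 476 TPM and 728 and 707 TPM with LPS, so that Vim-KO cells with PBS stood near WT cells with LPS. It was higher by 0.79 ± 0.06 (adjusted p = 2.64e-05) and 0.64 ± 0.06 (adjusted p = 8.59e-05). P4hb and Spcs3 were also higher in both states. Ern1 was lower, with differences of -0.66 ± 0.12 with PBS (adjusted p = 0.00336) and -0.40 ± 0.12 with LPS (adjusted p = 0.0297). Os9, an ERAD lectin, stood at 100.3 and 99.9 TPM in WT and 76.9 and 72.3 TPM in Vim-KO cells with PBS, and at 86.4 and 97.1 TPM and 71.0 and 71.3 TPM with LPS. All 4 Vim-KO libraries lay below all 4 WT libraries, with -0.42 ± 0.07 and -0.36 ± 0.07 (adjusted p = 0.0025 and 0.00521). Hyou1, Derl2 and Ssr4 were lower in both states as well. Of the other pathway genes Fkbp11 was higher in Vim-KO cells in both states, by 1.36 ± 0.08 and 1.26 ± 0.08, and Ddit3 lower, with differences of -1.68 ± 0.12 and -2.04 ± 0.12.

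The response to LPS itself differed between the genotypes in 7 members by the interaction test. The change was higher in Vim-KO cells for 4 and lower for 3, beside 13.7% and 6.96% of all genes. After scaling the numbers were 4 and 7, beside 10.1% and 11.1%. As listed, the counts are near the shares over all genes and are no result about the members as a list. The difference was 1.31 ± 0.16 for Ppp1r15a (adjusted p = 0.00115), 0.68 ± 0.14 for Syvn1 (adjusted p = 0.0123), 0.39 ± 0.09 for Canx (adjusted p = 0.0182) and 0.39 ± 0.08 for P4hb (adjusted p = 0.0151). Canx, as listed, fell in WT cells (-0.29) and was not called in Vim-KO cells (0.10). The lower changes were those of Ssr2 (-0.37 ± 0.10), Sec61b (-0.30 ± 0.09) and Manf (-0.30 ± 0.07), with adjusted p of 0.0293, 0.0466 and 0.0212. The call of Ppp1r15a held under each alternative run, including each library left out. The number of calls was 1 or 2 without WT PBS library 1 or 2, WT LPS library 1 or either Vim-KO PBS library, and 4 without WT LPS library 2. Among the sensors the differences were 0.23 (Atf6, adjusted p = 0.241), 0.26 (Ern1, 0.319), 0.08 (Eif2ak3, 0.837) and -0.22 (Xbp1, 0.209). Atf3 (2.74 ± 0.22) and Ero1l, the oxidase that recharges disulfide isomerases (1.01 ± 0.10), also had a larger response in Vim-KO cells, and Chac1 a smaller one (-1.63 ± 0.25).

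The liver table holds 5298 genes, each of them 2-fold or more different in TPM between WT liver with LPS and WT liver with PBS. Of the 38 members 11 are among them, and the other 27 were not analysed here. The WT change with LPS chose these genes and is a description: 10 members were at least 2-fold higher and 1 lower on log2(TPM + 1), beside 66.9% of the listed genes in either direction. With 1 library per group no test is possible, and the fold rule below is 2-fold on that scale.

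Creld2 stood at 16.1 TPM in the WT PBS liver, 111 TPM with LPS and 141 TPM with LPS plus CTM. Ppp1r15a stood at 6.01, 40.4 and 24.1 TPM in the same order, and Ern1 at 6.27, 1.35 and 1.38 TPM. In liver Ern1 was thus the listed member that was lower with LPS, while in the cell line its value was higher with LPS at both times. As listed, that passed the threshold at 24 h in WT and at 12 h in Vim-KO cells. Xbp1 stood at 149, 337 and 312 TPM, Syvn1 at 39.3, 186 and 179 TPM, Manf at 37.1, 133 and 137 TPM, and Hyou1 at 38.2, 114 and 108 TPM. Sdf2l1 stood at 10.3, 24.4 and 42.5 TPM, Sec61g at 18.3, 51.2 and 28.8 TPM, Ssr3 at 67.9, 157 and 113 TPM, and Spcs2 at 31.3, 65.5 and 42.8 TPM. Between LPS plus CTM and LPS none of the 11 members differed 2-fold, beside 1.59% of the listed genes, and the differences ran from -0.81 (Sec61g) to 0.77 (Sdf2l1).

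Between the LPS livers without and with macrophage depletion, Ppp1r15a was the member past 2-fold, at 24.95 against 8.94 TPM, beside 8.83% of the listed genes. Of the 11 members 9 were lower with depletion, with a median difference of -0.51 against -0.04 over the listed genes. Over the listed genes 44.8% were higher with depletion. The WT change with LPS chose the listed genes, all but 1 of the members for being higher with LPS. Of all listed genes only 27.5% were higher with LPS there. The medians and shares thus compare unlike sets and are a description only. Creld2 stood at 74.2 and 39.95 TPM and Syvn1 at 106 and 56.5 TPM without and with depletion, and Xbp1 at 304 and 321 TPM. The 5 listed Kupffer cell markers summed to 63.1 TPM without and 10.2 TPM with depletion, and the 5 listed neutrophil markers to 108 and 191 TPM. Their part in the result was not tested.

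In TG2-KO liver 2 members were at least 2-fold higher with LPS and 1 lower, beside 31.9% of the listed genes. Creld2 went from 31.6 to 80.6 TPM, Ppp1r15a from 8.45 to 26.7 TPM, and Ern1 from 4.57 to 1.70 TPM. Spcs2 stood at 59.9 TPM (PBS) and 37.7 TPM (LPS), and Ssr3 at 101 and 80.3 TPM, against higher values with LPS in WT liver. With LPS 10 of 11 members were lower in TG2-KO than in WT liver, while 63.3% of the listed genes were higher. The medians were -0.78 over the members and 0.12 over the listed genes. Sdf2l1 was the member past 2-fold, at 11.4 against 24.4 TPM, beside 6.30% of the listed genes. With PBS 10 of 11 members were higher in TG2-KO liver, beside 29.8% of the listed genes (median 0.58 against -0.19). None of the members differed 2-fold, beside 7.70% of the listed genes. The neutrophil markers summed to 1.73 TPM (WT) and 29.2 TPM (TG2-KO) with PBS, and their part was not tested. RNA of the TG2-KO livers was extracted on another date than that of the WT livers, so genotype and date cannot be told apart. The WT LPS and WT PBS libraries in these comparisons are also those that chose the listed genes, all but 1 of the members for being higher with LPS, so the values against them are a description only.

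**Figure D5:**
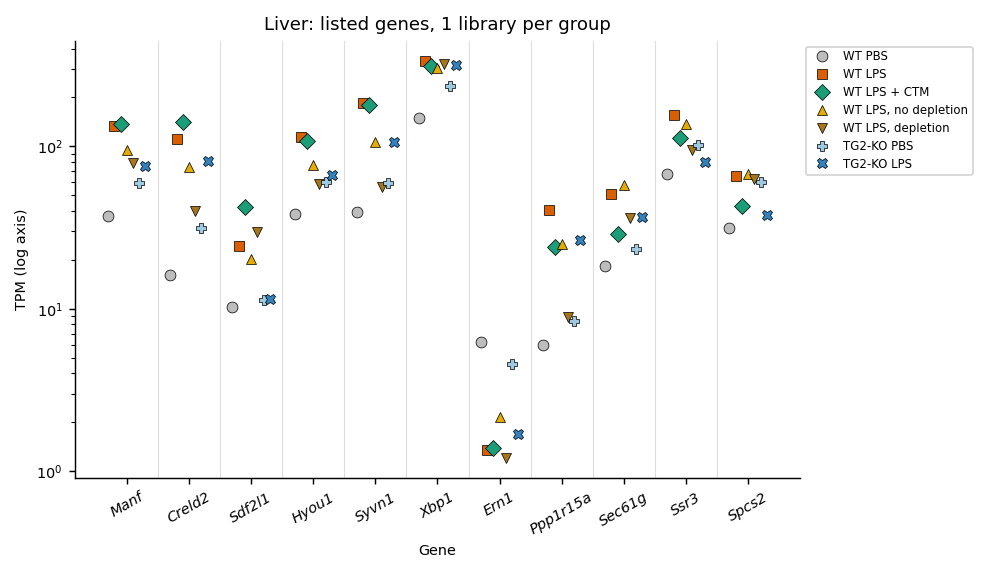
TPM (log axis) of the 11 listed members in 7 liver libraries, 1 per group, with 1 symbol per library. WT PBS is the lowest library for 10 genes, all but Ern1, and for Spcs2 and Ssr3 the TG2-KO LPS library lies below the TG2-KO PBS library.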

How the data were processed

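TPM were deposited by the authors for 14 RAW264.7 libraries and 7 liver libraries, made with Salmon on mm10/GRCm38 per the submitters' processing notes. Its version and the annotation are not given in the sources used here. Libraries came from a stranded mRNA kit, per the labels' protocols. TPM hold no counts, so the depth is unknown and no count test was run. The 24 h table numbers its LPS and CTM columns otherwise than the labels, so these libraries are called A and B and no pairing was made at 24 h.

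Each cell line experiment was fitted once over all its groups in limma 3.58.1 (R 4.3.3, with the trend option), using log2(TPM + 1) of genes whose mean reached 1 TPM. P-values were adjusted over all genes of the fit by the Benjamini-Hochberg method, and those under 0.05 were called. A fold change on log2(TPM + 1) understates that of low genes. With 2 libraries per group precision is limited. Liver values, 1 per group, were compared as differences of log2(TPM + 1), with no test. Values in every library were to be given for up to 8 members per comparison with the largest changes past the threshold and groups that do not overlap, and for Atf6, Ern1, Eif2ak3 and Xbp1. From 67 other pathway genes up to 4 per comparison were named. Hspa5 and members given by library beyond this were chosen after their values were seen. The members and gene lists were chosen with earlier results of these data known. Alternatives were a pseudocount of 0.1, no filter, a mean of at least 5 TPM, median-of-ratios scaling, no trend, only the samples of a contrast, a log2 change of at least 1, a replicate block at 12 h and each library left out. The replicate differences of group pairs at 12 h correlated at -0.22 to 0.098 over genes, so the numbers were not taken as pairs. The fit was tested on simulated data. Promoter sequences are RefSeq's for GRCm38.p6. Figures were drawn with matplotlib 3.10.9.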

Additional observations from a re-analysis of the deposited data

Results flagged for a closer look

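The response to LPS at 12 h differed between Vim-KO and WT cells by the interaction test of limma in 7 members, with a higher change in Vim-KO cells for 4 and a lower one for 3, beside 13.7% and 6.96% of all genes. The number was 1 to 9 when a library was left out, and it is no result about the members as a list. On the log2 scale the response in Vim-KO minus WT cells was 1.31 for Ppp1r15a, 0.68 for Syvn1, 0.39 for Canx and 0.39 for P4hb. It was -0.37 for Ssr2, -0.30 for Sec61b and -0.30 for Manf. The 896 and 912 TPM of neutrophil list genes in the WT LPS libraries, mostly S100a8, stand beside these values, and their part was not tested.

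In 19 members LPS moved both libraries of WT cells 1 way at 12 h and the other way at 24 h, past the threshold each time, beside 6.98% of all genes, and for 11 of them also after scaling. These differences between experiments were not tested. The 12 h change exceeded the 24 h change by 2.58 in Creld2, 2.23 in Manf, 1.62 in Hyou1 and 1.44 in Sdf2l1 among the luminal cofactors. Among chaperones and isomerases it did so by 1.54 in Pdia6, 1.22 in Calr, 1.17 in Pdia4 and 0.74 in Pdia3. In ERAD genes the values were 2.07 (Syvn1), 1.36 (Vcp) and 0.85 (Sel1l), and -0.65 for Edem1, the member that fell at 12 h and rose at 24 h. At the entry of the ER they were 0.93 (Sec61a1), 0.74 (Sec61b), 1.03 (Ssr2), 0.64 (Ssr1), 0.52 (Spcs1), 1.02 (Spcs2) and 1.00 (Spcs3).

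In liver, Spcs2 and Ssr3 were higher with LPS than with PBS in WT mice and lower in TG2-KO mice. The LPS difference in TG2-KO minus that in WT liver was -1.70 for Spcs2 and -1.52 for Ssr3. The WT difference chose the listed genes, so it was at least 2-fold by that choice and the values are a description only. They rest on 1 library per group and were not tested, and genotype and extraction date cannot be told apart.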

How the results depend on the processing

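Of 86 member changes, chosen as the largest past the threshold in each comparison and those of the sensors, 72 passed the threshold. They were followed under every alternative but the one that asks for a log2 change of at least 1. Under all of these runs 53 kept the call, and 19 lost it under at least 1. A single change reversed: Xbp1 with LPS in WT cells at 12 h went from -0.07 to 0.30 (adjusted p = 0.00594, limma) after median-of-ratios scaling. Asking also for a log2 change of at least 1 left 7 members (LPS, 24 h), 1 (CTM against LPS), 2 (CTM against PBS), 5 (LPS at 12 h, in each genotype), 0 (Vim-KO against WT, PBS), 1 (the same, LPS) and 1 (interaction). Without the trend 11 members were called for CTM against PBS and 4 for the interaction, and scaling gave 11 for the interaction. Leaving out 1 library at a time gave 16 to 22 called members for CTM against LPS, 10 to 12 for CTM against PBS, 6 to 8 for Vim-KO against WT with PBS and 1 to 9 for the interaction; the lone library is then assumed to vary like the other groups. The cause of these changes was not tested, beyond the fewer samples in each such fit.

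With the replicate block at 12 h the called members were 30 (LPS, WT), 30 (LPS, Vim-KO), 11 (genotype, PBS), 14 (genotype, LPS) and 5 (interaction), against 30, 31, 14, 15 and 7 without it. No replicate block could be fitted at 24 h because the column numbers differ from the labels, and a fit on only the samples of the contrast was not run for the interaction, which uses all groups. Depth is unknown, and 2 libraries per group limit what could be detected.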
